A study of Homo sapiens with 7 samples.

Results

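The nuclear genome encodes most subunits of the 5 complexes of oxidative phosphorylation, and the genes for these subunits were read here in T47D/A1-2 human breast cancer cells. Members were chosen by symbol: NDUFA, NDUFB, NDUFC, NDUFS and NDUFV with a number, SDHA to SDHD, and names starting with UQCR, COX4 to COX8, or ATP5. The rule found 93 names among 26175 listed in the RNA-seq table. Of these, 84 are subunit genes, 2 of which, UQCRHL and ATP5L2, are copies of UQCRH and ATP5L. The other 9 names are antisense RNAs (NDUFA6-AS1, NDUFB2-AS1 and NDUFV2-AS1), readthrough transcripts (ATP5J2-PTCD1 and NDUFC2-KCTD14), pseudogenes (ATP5EP2 and UQCRBP1) and ATP5S and ATP5SL, which are not subunits.

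The cells, called T-47D in the labels, are the A1-2 subline, which was engineered to make rat glucocorticoid receptor in excess and has a luciferase gene under the MMTV promoter in its genome. All samples share 1 condition: growth in 10% fetal bovine serum, then at least 24 hours in 5% serum stripped with dextran-coated charcoal. Levels are FPKM, fragment counts scaled to transcript length and library size, given as 1 value per gene over 3 RNA-seq replicates that the authors merged. Markers of luminal breast cells were high in the same table, with KRT8 at 1142, KRT18 at 555, GATA3 at 360.4, PGR at 68.5 and ESR1 at 44.1 FPKM, while the leukocyte marker PTPRC was at 0.0208. Transcription start sites (TSSs) are single positions called from 1 Start-seq library, an assay of short capped nascent RNA. Neither measure has an error between replicates, and the depth behind a value or a call is unknown. The intervals below are 95% intervals over genes or TSSs (exact Clopper-Pearson for shares, order statistics for medians) and cover only the sampling of members.

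Electrons from NADH enter the respiratory chain at complex I and those from succinate at complex II, pass through complex III to complex IV, where oxygen is reduced, and the proton gradient built by complexes I, III and IV drives ATP synthesis by complex V. A few subunits of complexes I, III, IV and V are made from mitochondrial DNA, so these complexes combine products of both genomes. Promoters of the nuclear genes are known for sites of NRF1, of GABP (an ETS factor also called NRF2) and of YY1.

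Sequences are shown first at a few promoters where these motifs stand out. All are from GRCh37, the same chromosomes as hg19, and read 5′ to 3′ on the strand of the member gene. The NRF1 motif TGCGCANGC, the ETS motif CCGGAAG and the YY1 motif AAGATGG were searched on both strands, and matches are in capitals. The first set lies between the gene TSS of the member, on its right, and that of a gene running the other way, on its left. Only the SDHA stretch spans the whole distance. Relative to the gene TSS of the member, NDUFA8 is shown from -146, NDUFS3 from -80, and NDUFA1 only up to -46. A further ETS match of NDUFS3, at -85, is therefore not shown in full. SDHA is shown for its repeated NRF1 motif, NDUFA8 for overlapping NRF1 motifs, and NDUFS3 and NDUFA1 for the ETS motif. The stretches are chr5:218269-218432 (plus strand) for SDHA, chr9:124922041-124922186 (minus) for NDUFA8, chr11:47600529-47600608 (plus) for NDUFS3 and chrX:119005697-119005794 (plus) for NDUFA1.
SDHA: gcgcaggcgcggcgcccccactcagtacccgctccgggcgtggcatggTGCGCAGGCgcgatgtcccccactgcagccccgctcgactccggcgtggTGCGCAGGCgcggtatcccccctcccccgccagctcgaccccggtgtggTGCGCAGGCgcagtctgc
NDUFA8: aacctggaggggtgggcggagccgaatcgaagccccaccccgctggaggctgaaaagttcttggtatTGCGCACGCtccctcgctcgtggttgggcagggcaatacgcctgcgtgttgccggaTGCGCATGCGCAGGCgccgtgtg
NDUFS3: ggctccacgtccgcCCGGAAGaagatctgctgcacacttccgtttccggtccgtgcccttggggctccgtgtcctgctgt
NDUFA1: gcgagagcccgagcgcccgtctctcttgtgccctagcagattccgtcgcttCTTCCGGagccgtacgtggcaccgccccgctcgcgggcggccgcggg

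The second set ends just upstream of the gene TSS at members without a divergent neighbor. COX6A1 (chr12:120875635-120875754, plus strand) and ATP5G3 (chr2:176046436-176046555, minus) hold an NRF1 motif. COX8A (chr11:63741972-63742091, plus) and COX6B1 (chr19:36139119-36139238, plus) hold an ETS motif.
COX6A1: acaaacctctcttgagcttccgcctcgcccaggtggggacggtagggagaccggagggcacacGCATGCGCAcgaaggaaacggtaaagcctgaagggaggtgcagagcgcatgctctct
ATP5G3: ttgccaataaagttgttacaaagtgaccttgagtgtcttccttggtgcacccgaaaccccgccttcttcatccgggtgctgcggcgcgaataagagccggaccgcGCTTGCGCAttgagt
COX8A: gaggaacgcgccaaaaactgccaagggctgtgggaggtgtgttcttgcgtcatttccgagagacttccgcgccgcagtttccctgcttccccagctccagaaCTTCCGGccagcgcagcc
COX6B1: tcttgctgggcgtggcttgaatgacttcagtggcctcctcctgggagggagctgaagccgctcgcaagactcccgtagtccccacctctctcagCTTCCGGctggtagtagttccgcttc

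The third set holds the first 30 nucleotides (nts) of transcripts, from the gene TSS on. It is shown because AAGATGG there contains the annotated start codon, ATG, in each of these genes. The stretches are chr3:48647050-48647079 (minus strand) for UQCRC1, chr4:668029-668058 (minus) for ATP5I, chr5:52856469-52856498 (plus) for NDUFS4, chr19:8386230-8386259 (minus) for NDUFA7, chr19:54606182-54606211 (plus) for NDUFA3 and chr22:42486744-42486773 (minus) for NDUFA6.
UQCRC1: gcaacagggccgactgcagctggAAGATGG
ATP5I: cggtgcggaggtcagggacAAGATGGtgcc
NDUFS4: atcctggcgtttgcctgcagcAAGATGGcg
NDUFA7: agtatcgcggacggAAGATGGcgtccgcca
NDUFA3: caAAGATGGctgcgagtaagtgcaggttcc
NDUFA6: gttgtggagtggatgctttggcAAGATGGc

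The respiratory chain genes were among the most abundant transcripts of these cells. An FPKM of at least 1 was listed for 83 of 93 members (89.2%), compared with 46.9% of all listed names. An FPKM of at least 100 was listed for 51 members (54.8%), compared with 3.51% of all names. The members make up 0.355% of the names and held 3.16% of the summed FPKM. Their median FPKM was 116 (83.2 to 153), whereas that of all names at an FPKM of at least 1 was 14.4. Among the 1000 names with the highest FPKM, 52 were members, and 5 were among the highest 100: ATP5B, COX8A, COX4I1, ATP5G2 and ATP5I.

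Without the 7 tissue-restricted isoforms and the copies UQCRHL and ATP5L2, all 75 remaining subunit genes were expressed, from 12.6 (NDUFA5) to 809 (ATP5B). NDUFA4 is counted with complex I here, by its name. The median FPKM was 139 (78.1 to 161) for complex I, 92.9 (69.4 to 163) for complex II, 98.4 (25.1 to 289) for complex III, 257 (116 to 499) for complex IV and 262 (109 to 347) for complex V. Complexes IV and V were listed higher, but the intervals of all 5 medians overlap. Across these 75 genes, which share the same merged libraries, FPKM tended to be lower where annotated transcripts were longer (Spearman's rho = -0.31, a description across genes). Length here is the median over a gene's annotated protein-coding transcripts. It need not be the length of the transcript expressed in these cells or the one used for FPKM.

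**Figure D1:**
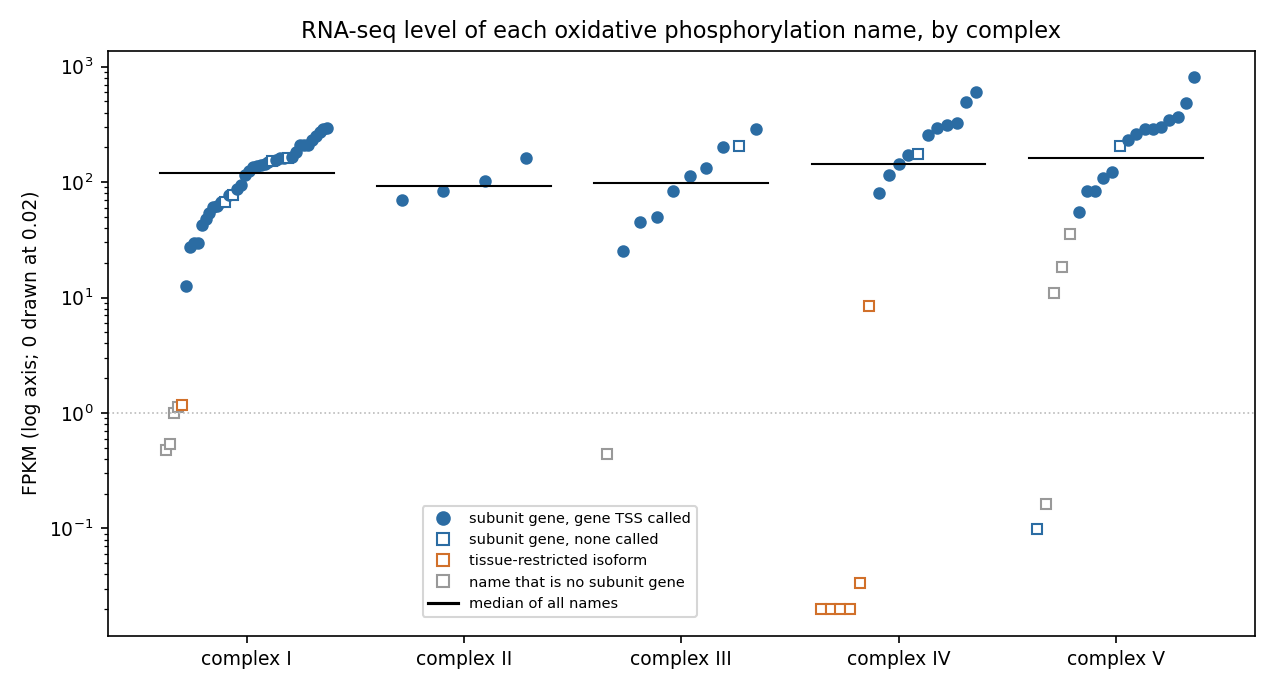
Each point is 1 of the 93 names, with its FPKM on a log axis, in order of FPKM within its complex; filled circles have a called gene TSS, open squares have none, and black lines are medians of all names. Nearly all subunit genes lie between 12.6 and 809, while 4 tissue-restricted isoforms of complex IV are listed at 0 and drawn at the lower edge.

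In complex I, which passes electrons from NADH to ubiquinone, 38 subunit genes were listed. The highest were the accessory subunits NDUFB5 at 295, NDUFS5 at 291 and NDUFB9 at 272 FPKM. Accessory subunits surround the catalytic core and carry no redox cofactor of the main electron path. The lowest were NDUFA10 at 29.8, NDUFV3 at 27.7 and NDUFA5 at 12.6, apart from NDUFA4L2. The 7 nuclear core subunits, which hold the flavin and the iron-sulfur clusters, had a median of 136 (54.0 to 208), and the 29 accessory subunits a median of 140 (78.1 to 163). Core members included NDUFS3 at 167, NDUFV1 at 153, NDUFS8 at 136, NDUFS7 at 67.4, NDUFV2 at 61.9 and NDUFS1 at 54.0. The intervals of core and accessory genes overlap.

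Complex II, succinate dehydrogenase, is the only complex made wholly from nuclear genes. SDHA, the flavoprotein, was listed at 163, and SDHB, the iron-sulfur protein, at 101. The membrane anchors SDHD and SDHC were lower, at 84.5 and 69.4. These 4 genes spanned a narrow range, with an SD of 0.53 on the scale of log2(FPKM + 0.1), compared with 1.08 for complex I. SDHA has near-identical pseudogene copies, so its value is less certain.

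In complex III, the core protein UQCRC2 had the highest level at 289 and UQCRC1 was listed at 132. UQCRFS1, the Rieske iron-sulfur protein, was at 83.2. The small subunits ranged widely: UQCRH at 200, UQCR10 at 114, UQCRQ at 50.3, UQCR11 at 44.8 and UQCRB at 25.1. UQCRHL, an intronless copy of UQCRH, was listed at 207, close to UQCRH itself, and it had no called gene TSS. Reads of these near-identical genes may be split or shared in the authors' counting, so both values are uncertain.

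Complex IV, cytochrome c oxidase, showed the clearest contrast, between isoforms. COX8A at 600, COX4I1 at 499, COX7C at 324, COX6B1 at 312, COX5B at 295 and COX7B at 257 were the highest. COX7A2 at 176, COX6A1 at 172, COX5A at 144, COX6C at 116 and COX7A2L at 80.1 followed. The isoforms known from lung (COX4I2), from heart and skeletal muscle (COX6A2 and COX7A1) and from testis (COX8C) were all listed at 0. COX6B2, known from testis, was listed at 0.0333. COX7B2 at 8.37 was the exception, with COX7B 30.7 times higher. NDUFA4, which is now counted as a subunit of complex IV, was listed at 42.6, 36.4 times above NDUFA4L2 at 1.17. In all 7 isoform pairs, the widely expressed gene was thus the higher one, and none of the 7 restricted isoforms had a called gene TSS. Of all listed names, 37.3% had one.

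In complex V, ATP synthase, the catalytic beta subunit ATP5B had the highest FPKM of all members at 809. The other subunits of the F1 head were ATP5E at 347, ATP5C1 at 301, ATP5A1 at 287 and ATP5D at 84.2. The alpha subunit ATP5A1 pairs with beta in equal number in the enzyme, yet was listed well below it. ATP5E has a pseudogene copy, ATP5EP2, which was listed at 18.3. In the membrane part and stalk, ATP5I reached 364, while ATP5F1 at 83.5 and ATP5G3 at 55.3 were the lowest apart from the copy ATP5L2 at 0.0995. ATP5G1, ATP5G2 and ATP5G3 encode the same mature c subunit, which forms the rotating ring. Of these, ATP5G2 was listed at 487 and ATP5G1 at 233, so ATP5G2 was 8.80 times above ATP5G3.

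Other genes of the pathway were listed lower. All 36 assembly factors, which build the complexes without being part of them, were at an FPKM of at least 1, with a median of 26.5 (17.4 to 44.3). COA4 was the highest at 133 and LYRM7, which binds the Rieske protein before its insertion, the lowest at 3.99. CYCS, the mobile carrier cytochrome c, was listed at 22.8. Among 12 regulators of mitochondrial gene expression, 10 were at an FPKM of at least 1. YY1 was listed at 44.8, GABPA at 7.24, NRF1 at 6.08 and the coactivator PPARGC1A at 0.566.

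A gene TSS is a start called on the strand of an annotated gene, and each was given the gene whose annotated start lay nearest within 1000 nts. Of the 93 members, 69 (74.2%, 64.1% to 82.7%) had a called gene TSS, compared with 37.3% of all names. At an FPKM of at least 1 the shares were 83.1% (73.3% to 90.5%) and 74.5%. In all, 71 of the 10391 gene TSSs belonged to members, because ATP5A1 and NDUFC1 had 2 each. The ATP5A1 calls lay 6474 nts apart and the NDUFC1 calls 1248 nts apart. None of the 10 members under an FPKM of 1 had a call. Such calls were few among all names too: of 9761 names with a call, 9141 were at an FPKM of at least 1, while only 12271 of all 26175 names were. The absence of calls at these 10 members is thus no trait of the members.

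The call was missing at 14 members with an FPKM of at least 1. Among subunit genes, these were UQCRHL, ATP5O at 204, COX7A2, NDUFA12 at 163, NDUFV1, NDUFB3 at 78.1, NDUFB6 at 67.8, COX7B2 and NDUFA4L2. ATP5O, the stalk protein that confers oligomycin sensitivity, and NDUFV1, which binds NADH, are thus abundant transcripts with no start in the list. The others were ATP5SL at 35.6, ATP5EP2, ATP5S at 10.9, NDUFV2-AS1 at 1.12 and NDUFA6-AS1 at 1.01. Near the NDUFB3 locus the list held 1 gene TSS, on the other strand, and in the NDUFB6 locus 1 on its own strand, which lay nearest to the annotated start of TOPORS.

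Member gene TSSs lay close to annotated starts. Of 71, 64 (90.1%, 80.7% to 95.9%) were within 50 nts, compared with 74.9% of all assigned gene TSSs, and 22 were at the annotated nucleotide. All 7 exceptions were upstream. Relative to the annotated start, they were at -425 nts for ATP5A1 (its upstream call), -296 for COX7A2L, -275 for NDUFB8, -238 for ATP5J, -214 for NDUFA10, -138 for COX6A1 and -82 for SDHB. Exact matches and upstream exceptions were not counted over all gene TSSs, so neither can be read as a trait of the members.

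The start codon often followed within 50 nts. At 36 of 71 member gene TSSs (50.7%, 38.6% to 62.8%), an annotated start codon of the gene lay 0 to 50 nts downstream in the genome, compared with 15.3% of all gene TSSs. At an FPKM of at least 100, the shares were 51.1% (36.1% to 65.9%) and 22.3%. The median distance to the nearest downstream start codon was 46 nts (35 to 84) for members and 407.5 nts for all. The start codon was 4 nts downstream at NDUFS6, 5 at NDUFA3, 7 at NDUFB5, 9 at UQCRB and 12 at ATP5B. In complex II, it was 25 nts downstream at SDHC, 35 at SDHD, 38 at SDHA and 95 at SDHB, which is outside the 50 nts. Distances were counted in the genome, so that an intron in the leader lengthens them, as at COX6B1 (2907 nts) and ATP5G2 (3469 nts).

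uaTSSs and daTSSs are starts on the antisense strand, upstream of a gene TSS or up to 2000 nts downstream of it. A uaTSS was called at 31 of 71 member gene TSSs (43.7%, 31.9% to 56.0%), compared with 53.1% of all. A daTSS was called at 11 (15.5%, 8.0% to 26.0%), compared with 28.4%. Both were called at 6 (8.45%, 3.16% to 17.5%), compared with 17.5%. The interval for daTSSs lay below the share of all gene TSSs, whereas the interval for uaTSSs included it. Counting only daTSSs within 1000 nts left the members at 15.5% and lowered the share of all gene TSSs to 24.1%, which the interval includes. At an FPKM of at least 100, a daTSS was called at 7 of 47 member gene TSSs (14.9%, 6.20% to 28.3%), compared with 30.5% of 874. The shares for uaTSSs at that level were 46.8% (32.1% to 61.9%) and 63.2%.

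By complex, uaTSSs were listed for 7 of 10 gene TSSs of complex IV, 12 of 34 of complex I, 1 of 4 of complex II, 4 of 8 of complex III and 7 of 15 of complex V. The exact intervals of these shares overlap, with 34.8% to 93.3% for complex IV and 19.7% to 53.5% for complex I. The median distance from gene TSS to uaTSS was 162 nts (111 to 239), compared with 200 nts (195 to 204) for all gene TSSs. The nearest uaTSSs were those of NDUFA4 (79 nts), NDUFA13 (80), ATP5J2 (82) and, at 103 nts each, UQCRC1, NDUFC2 and NDUFS5. The farthest were those of ATP5G1 (560 nts), NDUFV3 (460), UQCRC2 (415), UQCR11 (407) and COX8A (349).

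The 11 daTSSs were spread over complexes I, III, IV and V. Those of complex I included calls 116 nts downstream at NDUFA4, 332 at NDUFB4, 386 at NDUFS5, 387 at NDUFB8 and 505 at NDUFA10. In complex V they lay 501 nts downstream at ATP5E, 715 at ATP5D and 749 at ATP5G3. UQCRC2 had a daTSS at 346 nts and COX8A at 461 nts. The median was 431 nts (332 to 715), compared with 507 nts (491 to 526) for all. By the transcript that starts nearest to the call, 8 daTSSs were in intron 1, 2 in exon 1 (ATP5D and NDUFB8) and the ATP5G3 daTSS in intron 2. Positions differ by the locus listed with the FPKM. On the minus strand, the NDUFA10 locus starts at 240964819, so its daTSS at 240964869 lies upstream of that start. The NDUFB8 daTSS at 102289645 lies just inside its locus, which starts at 102289680. The gene TSSs of both genes lay upstream of these loci. Most of all daTSSs lie in introns by the authors' count, and their share was similar after random shuffling of gene models. The intron counts are thus no trait of the members. No daTSS was listed at complex II.

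The sequences around 6 daTSSs, those without an annotated exon within 20 nts, are shown on the antisense strand, so that the start each RNA used can be read. The call is the right letter of the pair in capitals, the pair being the nucleotides -1 and +1 of the antisense RNA. The stretches are chr1:39492387-39492427 (minus strand) for NDUFS5, chr2:240964849-240964889 (plus) for NDUFA10, chr2:176045666-176045706 (plus) for ATP5G3, chr11:63742533-63742573 (minus) for COX8A, chr16:21965041-21965081 (minus) for UQCRC2 and chr20:57606865-57606905 (plus) for ATP5E.
NDUFS5 daTSS: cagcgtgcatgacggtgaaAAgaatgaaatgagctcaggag
NDUFA10 daTSS: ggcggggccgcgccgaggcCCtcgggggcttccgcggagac
ATP5G3 daTSS: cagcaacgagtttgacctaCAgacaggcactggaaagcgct
COX8A daTSS: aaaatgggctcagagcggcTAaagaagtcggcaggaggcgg
UQCRC2 daTSS: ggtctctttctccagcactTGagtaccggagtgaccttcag
ATP5E daTSS: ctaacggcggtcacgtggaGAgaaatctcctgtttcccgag
A pyrimidine followed by a purine, the commonest start of RNA polymerase II, stood at 6 of the 11 daTSSs (54.5%, 23.4% to 83.3%), compared with 66.9% of all daTSSs, at 15 of 31 uaTSSs (48.4%, 30.2% to 66.9%), compared with 64.7% of all uaTSSs, and at 39 of 71 member gene TSSs (54.9%, 42.7% to 66.8%), compared with 66.1% of all gene TSSs.

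Antisense calls were next set against the genes that start upstream. A divergent gene TSS, a gene TSS on the other strand up to 1000 nts upstream, was listed at 20 of 71 member gene TSSs (28.2%, 18.1% to 40.1%), compared with 11.5% of all. At an FPKM of at least 100, the shares were 27.7% (15.6% to 42.6%) and 12.9%. By annotation alone, 26 member gene TSSs (36.6%, 25.5% to 48.9%) had a listed coding gene starting divergently within 1000 nts, compared with 18.1% of all. The 6 extra neighbors, without a call within that distance, were TSSK6 at NDUFA13, RPS28 at NDUFA7, TATDN1 at NDUFB9, MRPL36 at NDUFS6, MAGT1 at COX7B and MYL5 at ATP5I.

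The closest called pair was NDUFS3 with KBTBD4, 87 nts apart. SDHD and TIMM8B, a mitochondrial import chaperone, were 117 nts apart. NDUFB5 and MRPL47, a protein of the mitochondrial ribosome, and NDUFS1 and EEF1B2, a translation elongation factor subunit, were both 141 nts apart. The next were NDUFA1 with RNF113A (144 nts), NDUFA8 with MORN5 (163), SDHA with CCDC127 (165), ATP5C1 with KIN (184), NDUFA2 with IK (187), NDUFA3 with OSCAR (194), COX4I1 with EMC8 (196) and UQCRQ with GDF9 (202). The other 8 pairs were 286 to 843 nts apart. The median spacing was 195 nts (163 to 290), compared with 267 nts (257 to 284) over the 1198 gene TSSs with a divergent partner.

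**Figure D2:**
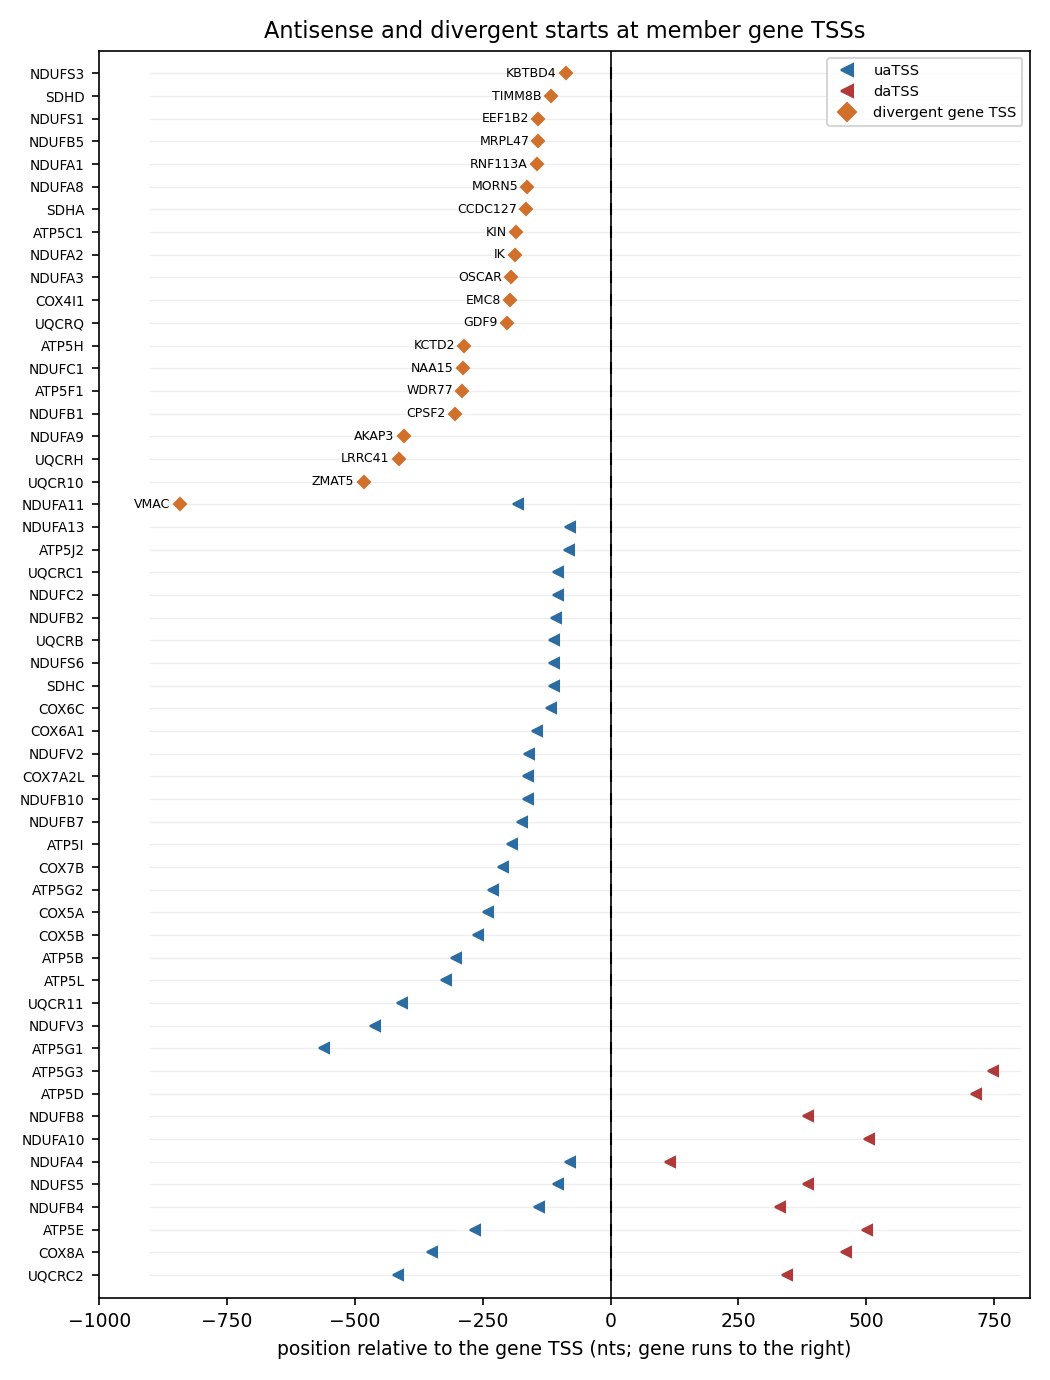
Rows are member gene TSSs with an upstream or antisense call, aligned at the gene TSS (0 nts) with the gene running right; blue triangles are uaTSSs, red triangles daTSSs and orange diamonds divergent gene TSSs with the partner's name. The divergent rows at the top hold no red triangle and 1 blue triangle, at NDUFA11.

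The member was the more abundant gene in 19 of 20 pairs. The exception was SDHD at 84.5 FPKM, with TIMM8B at 108. The median was 142 (84.5 to 167) for members and 26.5 (7.28 to 36.4) for partners. Over all divergent gene TSSs, the median FPKM of partners was 20.2 (18.4 to 23.0, n = 1172), which the interval for the members' partners includes. Whether the difference within pairs goes beyond the high level of members in general was not tested. How often partners in all divergent pairs were the lower gene, or under an FPKM of 1, was not counted. In 4 pairs, the start assigned to the partner was called while its FPKM was under 1: AKAP3 (0.0196) beside NDUFA9, MORN5 (0.252) beside NDUFA8, OSCAR (0.317) beside NDUFA3 and GDF9 (0.495) beside UQCRQ. Partners listed closer to their member included MRPL47 at 148, beside NDUFB5 at 295, and IK at 73.8, beside NDUFA2 at 140.2. The 51 member gene TSSs without a called divergent partner had a median of 144 (109 to 210).

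**Figure D3:**
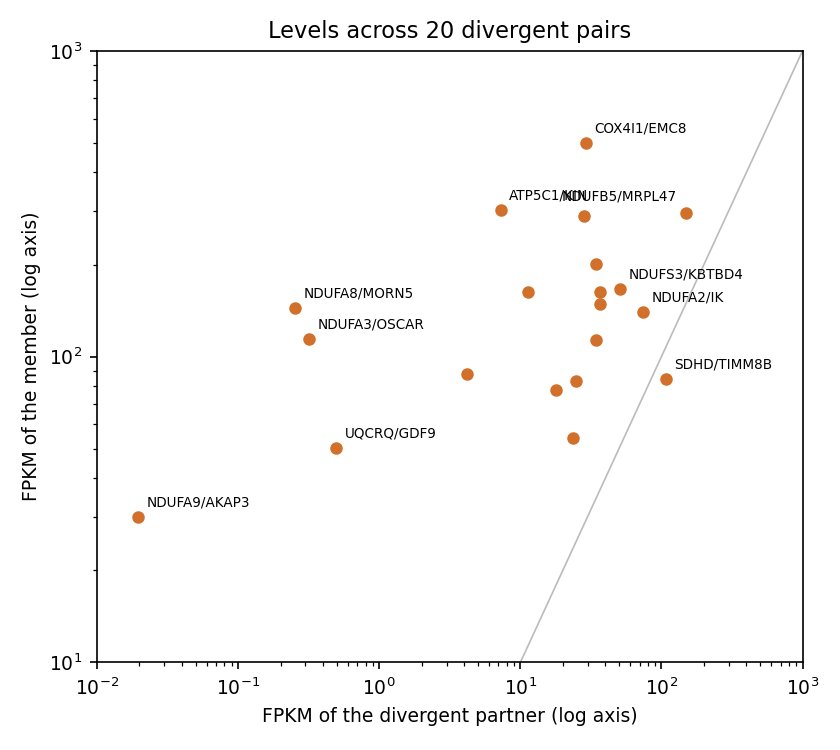
Each point is a divergent pair, with the FPKM of the partner across and of the member up, both on log axes, and the line marks equal levels. All points lie above the line except SDHD with TIMM8B, and 4 partners lie under an FPKM of 1.

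At the 20 divergent member gene TSSs, a uaTSS was listed at 1 (5.00%, 0.127% to 24.9%), NDUFA11, and a daTSS at 0 (0.00% to 16.8%). Over all divergent gene TSSs the shares were 16.2% and 7.10%. The authors dropped daTSS calls within 1000 nts of an annotated start on the same strand, and the partner gene starts on that strand. This filter thus limits in advance which daTSSs could be listed at divergent gene TSSs. How much of the low daTSS share it accounts for was not tested. The partner's called start is itself an antisense start upstream, so the uaTSS share does not count all such starts. At the 51 other member gene TSSs, a uaTSS was listed at 30 (58.8%, 44.2% to 72.4%), compared with 57.9% of such gene TSSs. A daTSS was listed at 11 (21.6%, 11.3% to 35.3%), compared with 31.2%. Both intervals include the share of all gene TSSs without a called divergent gene TSS. These gene TSSs are not free of divergent neighbors, since 6 of the members' had an annotated one without a call. Of these 6, NDUFA13, NDUFS6, COX7B and ATP5I had a uaTSS, whereas NDUFA7 and NDUFB9 had none. Whether such a uaTSS is the start of the neighbor was not tested.

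Levels of members were compared by their antisense calls. The median was 172 (109 to 257) with a uaTSS and 137 (84.5 to 163) without. It was 209 (42.6 to 347) with a daTSS and 139 (109 to 167) without. The intervals overlap in both cases. Of the members with a daTSS, COX8A at 600, ATP5E at 347, NDUFS5 at 291 and UQCRC2 at 289 were high, whereas NDUFA10 at 29.8 and NDUFA4 at 42.6 were low.

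The sequence from 150 nts upstream to 50 nts downstream of each member gene TSS was compared with the same window at all gene TSSs. TGCGCANGC was found at 13 of 71 (18.3%, 10.1% to 29.3%), compared with 6.37%. CCGGAAG was found at 22 (31.0%, 20.5% to 43.1%), compared with 16.8%. AAGATGG was found at 15 (21.1%, 12.3% to 32.4%), compared with 6.32%. At least 1 of the 3 was found at 43 (60.6%, 48.3% to 72.0%), compared with 26.7%, and 7 held more than 1 of them. The intervals of all 3 lay above the shares of all gene TSSs. A match is a string of letters and was not tested as a binding site.

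At an FPKM of at least 100, the shares for members and for all such gene TSSs were 14.9% (6.20% to 28.3%) and 7.32% for TGCGCANGC, 38.3% (24.5% to 53.6%) and 21.6% for CCGGAAG, and 17.0% (7.65% to 30.8%) and 9.27% for AAGATGG. At this level, only the interval for CCGGAAG lay above the share of all. CCGGAAG was at 9 of the 20 divergent member gene TSSs (45.0%, 23.1% to 68.5%), compared with 24.0% of all divergent ones. It was at 13 of the 51 others (25.5%, 14.3% to 39.6%), compared with 15.8%.

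The NRF1 motif was found at 3 of the 4 complex II genes, SDHA, SDHB and SDHD. SDHA held 3 matches, whose first letters were at -116, -67 and -18 from the gene TSS, 49 nts apart each time, as the sequence printed above shows. In all, 17 of 10391 gene TSSs held 3 or more matches. NDUFA8 held 4, of which those at -23, -20 and -17 overlap. The other members with the motif were NDUFA9, NDUFB4 and NDUFS6 of complex I, UQCR11 and UQCRB of complex III, COX5B, COX6A1 and COX7A2L of complex IV, and ATP5G3 of complex V. The median FPKM was 101 (44.8 to 183) with the motif and 147 (116 to 209) without.

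In complexes IV and V, the ETS motif lay at varied distances from the start. It began at -18 in COX8A, -23 in COX4I1, -26 in COX6B1, -11 and -43 in COX5B, -15 in ATP5L and -4 in ATP5I. In ATP5A1 it began at -59 and, at the upstream call, at 24, and in ATP5H at -92. Over all members, matches began at a median of -63 (-77 to -26), compared with -45 (-47 to -43) for all gene TSSs. The members' matches were thus not closer to the start. Of the 4 members with the highest FPKM, COX8A and COX4I1 held the motif, whereas ATP5B and ATP5G2 had no match in the window. The median FPKM of gene TSSs with the motif was 251 (109 to 295), and without it 125 (84.2 to 149). These intervals overlap.

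The YY1 motif lay mostly just downstream of the start. Of 15 matches, 9 began 0 to 30 nts downstream of the gene TSS (60.0%, 32.3% to 83.7%), compared with 48.2% of all gene TSSs with the motif. Their first letters included 2 in NDUFA3, 14 in NDUFA7, 19 in ATP5I, 21 in NDUFS4, 22 in NDUFA6 and SDHC, 23 in UQCRC1 and 24 in NDUFS7. In all 9, the ATG of AAGATGG was an annotated start codon of the gene, compared with 65.0% of all gene TSSs with the motif at that place. Counted over all members, 12.7% (5.96% to 22.7%) had a motif of this kind, compared with 1.98% of all gene TSSs. The extended letters of this motif are also known as TISU, an element at which translation starts on very short leaders.

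**Figure D4:**
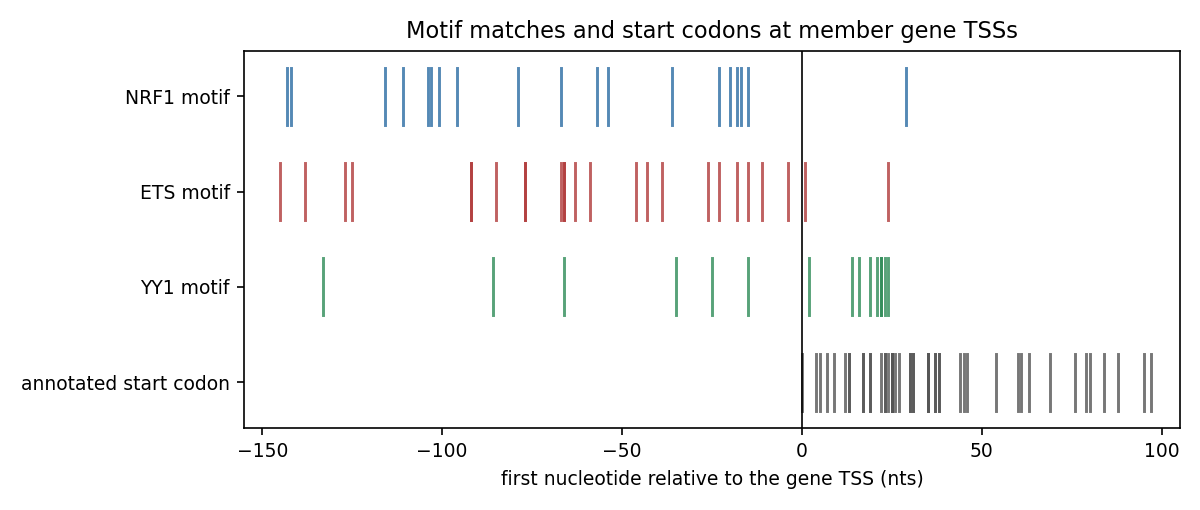
Each tick is the first nucleotide of a motif match, or of the nearest annotated start codon up to 100 nts downstream, relative to the gene TSS at 0. NRF1 and ETS ticks lie mostly upstream, while 9 of the 15 YY1 ticks lie between 2 and 24 nts downstream, among the start codons.

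For the other patterns, no interval lay above the share of all gene TSSs. The CREB motif TGACGTCA was found at 2 (2.82%, 0.343% to 9.81%), compared with 2.51%. CCAAT, bound by NF-Y, was found at 17 (23.9%, 14.6% to 35.5%), compared with 27.5%. GGGCGG, bound by Sp1, was found at 36 (50.7%, 38.6% to 62.8%), compared with 64.1%. TATAA or TATAT starting 24 to 35 nts upstream was found at 0 (0.00% to 5.06%), compared with 312 of the 10391 gene TSSs. A run of 5 pyrimidines at the start was found at 5 (7.04%, 2.33% to 15.7%), compared with 5.71%. The interval for GGGCGG lay below the share of all gene TSSs. GC content within 50 nts of the gene TSS was 63.1% ± 8.41 (SD, n = 71 member gene TSSs), compared with 67.2% ± 9.02 (SD, n = 10391).

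The same features were counted for the assembly factors. Of their 32 gene TSSs, 10 (31.2%, 16.1% to 50%) had a divergent gene TSS, 14 (43.8%, 26.4% to 62.3%) a uaTSS and 8 (25%, 11.5% to 43.4%) a daTSS. The shares over all gene TSSs were 11.5%, 53.1% and 28.4%. TGCGCANGC was at 4 of the 32 (12.5%, 3.51% to 29%), compared with 6.37% of all, CCGGAAG at 6 (18.8%, 7.21% to 36.4%), compared with 16.8%, and AAGATGG at 2 (6.25%, 0.766% to 20.8%), compared with 6.32%. All 3 motif intervals include the share of all gene TSSs. Pairs included SURF1 with SURF2 and COA4 with PAAF1. Of the 11 gene TSSs of regulators, 1 had a divergent gene TSS, that of TFB2M with CNST.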

How the data were processed

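Used here were the FPKM values of 3 RNA-seq replicates merged by the authors and the TSS calls from Start-seq replicate 1. The second Start-seq library and the nucleosome and open-chromatin data were left out. The authors deposited FPKM estimated with Cufflinks 2.2.1 after adapter trimming (cutadapt 1.2.1), strand-specific alignment (TopHat2 2.0.4), duplicate removal (Picard) and merging, so that the read count behind a value is unknown. The deposited positions of gene TSSs, uaTSSs and daTSSs are in hg19, from reads aligned with Bowtie 0.12.8, with a score of 0 in each row and no read counts. Antisense calls were joined to gene TSSs by their shared identifier. The deposited tables had 0 unused columns of per-sample values.

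Gene names were matched to GENCODE 44 lifted to GRCh37, with RefSeq synonyms for older symbols, for 23113 of 26175 names and all 93 members. A gene TSS was given the gene with the nearest annotated start on its strand, within 1000 nts, which assigned 10211 of 10391. Sequence came from GRCh37, and motifs were matched exactly on both strands from -150 to +50. Printed stretches hold at most 30 exonic nts. Shares have exact Clopper-Pearson intervals, medians order-statistic intervals. No test was run, since no value has replicates, and the shares are set beside those of all genes or gene TSSs, which include the members. Assignment, partner search and motif search were tested on simulated data. Python 3.11.15, numpy 2.4.6, pandas 2.3.3, scipy 1.17.1 and matplotlib 3.10.9 were used.

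The members, lists and motifs were chosen with earlier results of these data known. Named genes were all SDH and UQCR genes, the 3 highest and 3 lowest subunits of each other complex, isoform pairs, members without an expected call, members with a daTSS, the 5 nearest and farthest uaTSSs, the 12 closest divergent pairs and members with motifs near the gene TSS. The core subunits of complex I, further levels, the start codon distances and the comparison at an FPKM of at least 100 were added after values were seen. Counts cover all members, but 1 member is not reported here by name, and its row is left out of the map of antisense calls.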

Additional observations from a re-analysis of the deposited data

How the results depend on the processing

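Of 85 recomputed shares and medians, 78 stayed within the interval of the main value and 7 did not. The share of members with a gene TSS rose from 74.2% to 83.1% at an FPKM of at least 1. It rose to 86.0% when any gene TSS within 1000 nts of the locus counted, on either strand. That count takes in starts of neighboring genes, and the same share was not computed over all names. The uaTSS share rose from 43.7% to 58.8% without divergent gene TSSs. The daTSS interval included the share of all gene TSSs when divergent gene TSSs were left out (21.6% and 31.2%) or daTSSs beyond 1000 nts (15.5% and 24.1%), and the intervals for TGCGCANGC and AAGATGG did so at an FPKM of at least 100. With a pseudocount of 1 in place of 0.1, the SD of log2 FPKM over all names, which has no interval, went from 2.47 to 2.17 in complex I, from 2.62 to 2.22 in complex III, from 5.19 to 3.74 in complex IV and from 3.26 to 2.66 in complex V. The shorter motif TGACG raised the share of the CREB motif from 2.82% to 33.8%, compared with 27.0% of all gene TSSs. At an FPKM of at least 100, the share starting with 5 pyrimidines went from 7.04% to 2.13%. The share with a start codon, 50.7% within 50 nts, was 33.8% within 30 nts and 67.6% within 100 nts, compared with 10.1% and 25.5% of all gene TSSs; it was 50.7% with MANE Select transcripts alone. No paired analysis was possible because no result comes from a test, and no library could be left out, since each list is a single merged value or call. Depth limits which starts were called, by an amount that is unknown here.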

Other observations

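SDHA held a further TGCGCANGC match outside the window used above, at -165 from the gene TSS. The 4 matches at -165, -116, -67 and -18 were thus 49 nts apart throughout. The match at -165 spans the position called as the start of CCDC127, 165 nts upstream. This was noticed after the sequence was read, and whether the repeats bind any factor was not tested.

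At gene TSSs with an FPKM of at least 100, a run of 5 pyrimidines at the start, the pattern of ribosomal protein genes, was found at 2.13% of those of members (0.0539% to 11.3%), compared with 10.9% of all. The interval includes the share of all such gene TSSs. Without the limit on FPKM, the shares went the other way, at 7.04% of member gene TSSs and 5.71% of all. This comparison was also chosen after values were seen.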
